A study of Homo sapiens with 8 samples.

Results

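The MHC class III interval is the gene-dense stretch of chromosome 6 between the class I and the class II genes. Its members here were the protein-coding GENCODE genes whose MANE Select or canonical 5′ end lay in chr6:31500000-32400000 of GRCh38, which gave 68 of the 20033 protein-coding promoters. The choice used position alone and no measured value. H3K4me3 ChIP-seq broad peaks were available from U2OS cells, a human osteosarcoma line, as 3 wild-type (WT) and 3 ZBTB48 knockout (KO) libraries. Each library came from a separate clone, and all 6 clones had received 250 U/ml of IFNγ for 24 h, so that no untreated cells enter the comparison. The 8 samples also held 2 WT inputs, which were not used here. ZBTB48 is a zinc finger protein that the study examined as a regulator of CIITA, the transactivator of the class II genes, and the question was whether loss of the mark on the class II side extended into the class III promoters.

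H3K4me3, the trimethylation of lysine 4 of histone H3, is laid down at the promoters of genes that are transcribed or ready to be, mostly at CpG-rich ones. The class III genes carry no antigen-presenting molecules. They encode the complement components C2, CFB and C4, the TNF cytokine cluster, HSP70 chaperones and many housekeeping proteins of RNA processing, transcription, lipid metabolism and protein quality control. IRF factors are among those that act downstream of IFNγ, and complement genes are among those it is known to induce in many cell types.

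A promoter counted as called where a library had a peak no further than 1 kb from its 5′ end. Covered length is the sum of peak bp in the window of 3 kb to each side, at most 6001 bp. By these measures 37 members were called in all 6 libraries, 7 in some and 24 in none. The 150 bases upstream of 6 members show the range of CpG content that goes with these calls. They are given 5′ to 3′ on the gene's strand with every CpG in capitals. DDX39B (chr6:31542004-31542153, minus strand) and PPT2 (chr6:32153991-32154140, plus strand) were called in all 6 libraries. PRRT1 (chr6:32151940-32152089, minus strand) was called in the WT libraries only and VWA7 (chr6:31777329-31777478, minus strand) in 3 of 6. LTB (chr6:31582425-31582574, minus strand) was called in all 6 and AGER (chr6:32184254-32184403, minus strand) in none.
DDX39B: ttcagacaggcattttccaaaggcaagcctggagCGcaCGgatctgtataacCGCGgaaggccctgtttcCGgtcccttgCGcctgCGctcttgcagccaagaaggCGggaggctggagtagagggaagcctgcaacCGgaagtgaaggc
PPT2: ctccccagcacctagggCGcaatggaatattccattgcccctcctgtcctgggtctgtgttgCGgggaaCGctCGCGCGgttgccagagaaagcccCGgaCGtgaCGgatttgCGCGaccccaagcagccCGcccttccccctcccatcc
PRRT1: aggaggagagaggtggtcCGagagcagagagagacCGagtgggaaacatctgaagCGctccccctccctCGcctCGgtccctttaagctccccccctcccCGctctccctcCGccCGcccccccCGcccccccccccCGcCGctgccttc
VWA7: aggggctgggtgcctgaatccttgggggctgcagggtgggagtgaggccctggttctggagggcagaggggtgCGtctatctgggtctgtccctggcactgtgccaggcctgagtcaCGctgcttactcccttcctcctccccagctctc
LTB: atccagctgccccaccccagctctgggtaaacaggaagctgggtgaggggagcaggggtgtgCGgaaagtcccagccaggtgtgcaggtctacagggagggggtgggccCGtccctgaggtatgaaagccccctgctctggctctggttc
AGER: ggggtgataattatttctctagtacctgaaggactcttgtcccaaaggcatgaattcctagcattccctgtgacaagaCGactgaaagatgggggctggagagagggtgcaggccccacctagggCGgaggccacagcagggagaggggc
The stretches of DDX39B, PPT2 and PRRT1 held 9, 12 and 11 CpGs, and those of VWA7, LTB and AGER held 2 each. LTB was thus called in every library with as few CpGs upstream as AGER, which was called in none. In WT replicate 3 and the KO libraries the LTB peak began 235 to 475 bp downstream of the 5′ end. These upstream bases therefore lay under a peak only in WT replicates 1 and 2.

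Over the 300 bases from 250 before to 50 after the 5′ end, the median ratio of observed to expected CpG was 0.733 in the 37 members called in all 6 libraries, with 25 of them at 0.6 or above. It was 0.310 in the 7 called in some libraries, where PRRT1 alone passed 0.6 at 0.611. It was 0.197 in the 24 called in none, 1 of which passed 0.6. Among all promoters the medians were 0.862 for the 13036 called in all 6 libraries and 0.281 for the 6077 called in none, so the called class III promoters had a lower median CpG ratio than called promoters in general. A called member need not have a peak over its 5′ end. ATP6V1G2 (0.265) and ATP6V1G2-DDX39B (0.255), among the 37, had none there in any KO library. The part of such members in the lower median was not tested. The lowest ratio of a member called in all libraries was that of LTB at 0.0698.

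The lists differed in kind. WT replicates 1 and 2 had a median peak width of 2297 and 2353 bp and a median fold enrichment of 13.4 and 14.0, against 1487 bp and 4.19 in WT replicate 3 and 1275 to 1388 bp and 4.32 to 4.65 in the 3 KO libraries. The number of peaks ran from 21712 to 26370. The 2 inputs carry the clone numbers of WT replicates 1 and 2, and for which lists the peak caller used an input is not given in the sources used here. Every covered length is therefore also given relative to its own library, as a percentage of the library's median over the 13036 promoters called in all 6 libraries (3363, 3290 and 2001 bp in WT replicates 1 to 3 and 1954, 1785 and 1685 bp in KO replicates 1 to 3), and WT replicate 3 is also set against the 3 KO libraries alone. The lists hold no read counts, so the depth of each library was unknown and a missing peak is not the absence of the mark. Of 5 promoters chosen for the osteoblast lineage and osteosarcoma, RUNX2, COL1A1 and SPARC were called in every library and COL1A2 and TWIST1 in none, and 0 of 5 blood cell promoters were called in any.

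Calls at class III promoters were nearly the same in both genotypes. The WT libraries called 40, 40 and 40 of the 68 members and the KO libraries 39, 40 and 39, which is 40 ± 0 against 39.3 ± 0.577 (SD, n = 3 each). On the class II side, the 21 promoters in the 700 kb above the interval, the WT libraries called 16, 15 and 16 and the KO libraries 9, 10 and 7, or 15.7 ± 0.577 against 8.67 ± 1.53. On the class I side, the 30 promoters in the 900 kb below it, calls were 21, 21 and 21 in WT and 21, 20 and 20 in KO. The KO mean was thus 0.667 promoters lower in the class III interval and 7 lower on the class II side, where the WT and KO libraries did not overlap. When only peaks of at least 4-fold enrichment were kept, the calls were 40, 39 and 6 in WT and 7, 10 and 11 in KO, which is 100, 97.5 and 15.0% of the calls made with every peak in WT and 17.9, 25.0 and 28.2% in KO. Over all promoters that threshold kept 98.0, 98.4 and 58.0% of the calls in WT and 64.1, 73.7 and 78.2% in KO, so the class III calls were lost more often in the 4 narrow lists of both genotypes. Over all promoters, with every peak kept, the libraries called 13542, 13494 and 13518 in WT and 13573, 13301 and 13318 in KO.

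**Figure D1:**
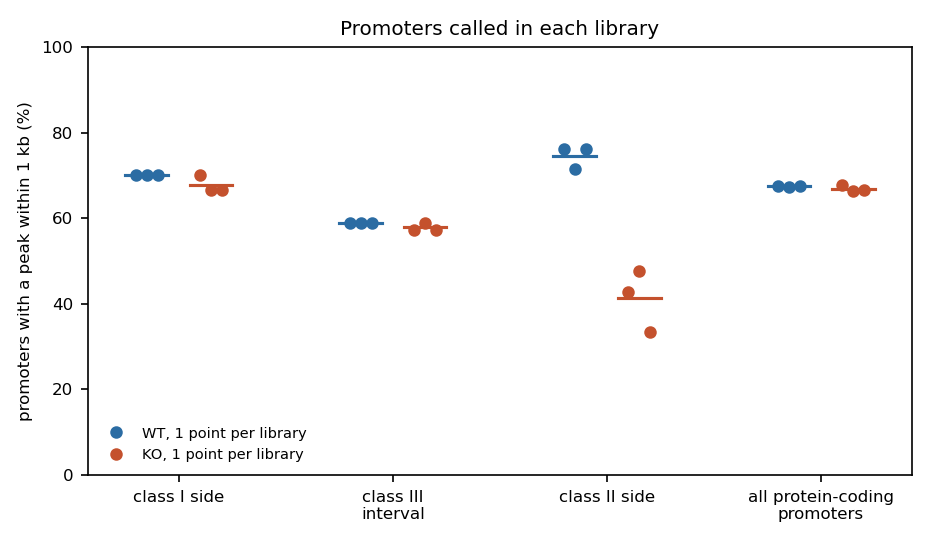
Percentage of protein-coding promoters called (vertical axis) in the class I side, the class III interval, the class II side and among all promoters. Each point is 1 library (WT blue, KO orange) and each bar the mean of 3; class III libraries sit between 57.4 and 58.8%, while on the class II side WT lies at 71.4 to 76.2% and KO at 33.3 to 47.6%.

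Of the 44 members called in at least 1 library, PRRT1 was the 1 member called in all 3 WT and no KO libraries, and 0.15% of the 13956 promoters called anywhere showed that pattern. On the class II side 4 of 17 did. No member showed the reverse, all 3 KO and no WT libraries, as 0.0287% of all promoters did. A mixed call, in some but not all libraries, was found at 7 of the 44 members and at 6.59% of all promoters. The 7 were ENSG00000289282, VWA7, ENSG00000244255, C2, CFB, PRRT1 and GPSM3, and they did not lie at 1 end of the interval. The remaining 61 members had the same call in all 6 libraries.

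**Figure D2:**
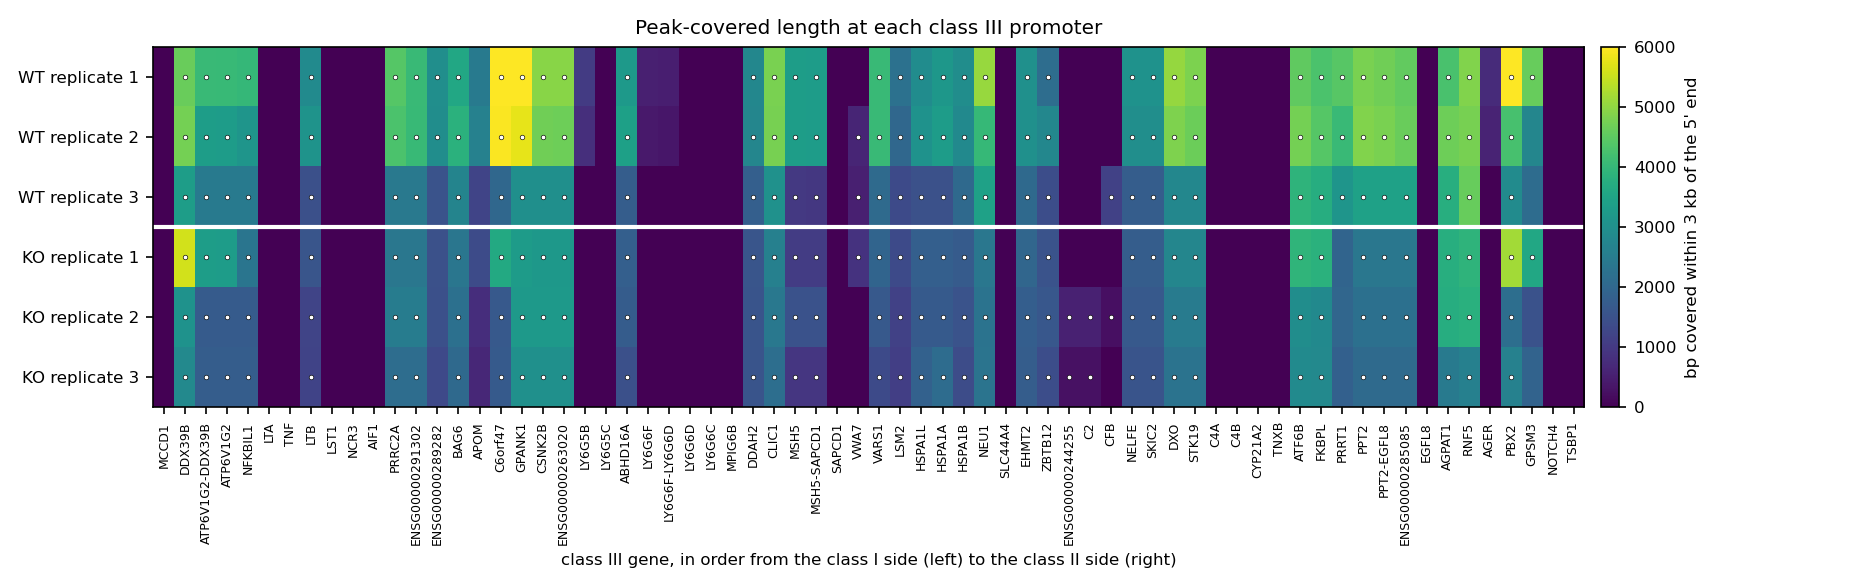
Covered length within 3 kb of the 5′ end (colour, bp) of the 68 class III genes (columns, in genomic order) in the 3 WT and 3 KO libraries (rows, separated by the white line), with a white dot where a peak lay within 1 kb. Most marked columns are brighter in WT replicates 1 and 2 than in the other 4 libraries, and PRRT1 is the 1 column with a dot in every WT row and in no KO row.

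Covered length was highest in the 2 lists of wide peaks. The mean over the 68 members was 2470, 2374 and 1510 bp in WT replicates 1 to 3 and 1549, 1291 and 1183 bp in KO replicates 1 to 3, or 2118 ± 529 against 1341 ± 188 bp (SD, n = 3 each). WT replicate 3 lay below KO replicate 1, so the genotypes overlapped. The KO mean was lower by 36.7% in the interval, by 35.4% over all promoters, by 28.7% on the class I side and by 54.1% on the class II side. Against the 3 KO libraries alone, WT replicate 3 exceeded the KO mean by 169 bp in the interval, 146 bp over all promoters and 668 bp on the class II side.

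On the relative scale the class III promoters did not separate the genotypes. Their mean covered length was 73.4, 72.2 and 75.4% of the library's median in WT and 79.3, 72.3 and 70.2% in KO. This is 73.7 ± 1.66% against 73.9 ± 4.76% (SD, n = 3 each), with all 3 WT values inside the KO range. On the class II side the same quantity was 70.0 ± 8.94% in WT and 49.97 ± 6.89% in KO, and over all promoters it was 68.9 ± 2.01% and 70.6 ± 1.13%. KO was lower on this scale at 15 of the 37 members called in all libraries (40.5%), beside 39.8% of all promoters called in all libraries, and the median difference was 2.02 points higher in KO beside 2.996 points over all promoters. Promoters called in all WT libraries, whatever their call in KO, also include those lost in KO. Of the 38 such members KO was lower at 16 (42.1%), beside 40.35% of all such promoters, with a median difference of 2.02 points. By the same choice on the class II side KO was lower at 11 of 14 promoters, with a median difference of −23.0 points.

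Promoter by promoter, covered length was compared by a two-sided exact permutation test over the 20 assignments of the 6 libraries, computed for all 14422 promoters with any coverage. The smallest p this design allows is 0.1, and the smallest Benjamini-Hochberg adjusted p was 0.196, so no promoter could pass a threshold of 0.05. Every WT library exceeded every KO library at 19 of the 49 members with any coverage, while 50.8% of all promoters did so, and on the class II side 8 of 18. No member showed the reverse, which 0.111% of all promoters did. The class III share of 38.8% was thus below that of promoters in general, and the count was 40 without WT replicate 3 and 31 without KO replicate 1. On the relative scale 6 of the 49 members had every WT above every KO library, namely CLIC1, VARS1, PRRT1, PPT2, PPT2-EGFL8 and ENSG00000285085, beside 5.53% of all promoters and 5 of 18 on the class II side. DDX39B, CSNK2B and ENSG00000263020 had every KO above every WT library, beside 12.9% of all promoters. The last 4 of the first set lie under 1 peak, as do CSNK2B and ENSG00000263020, so these 9 members stand for 5 peaks.

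**Figure D3:**
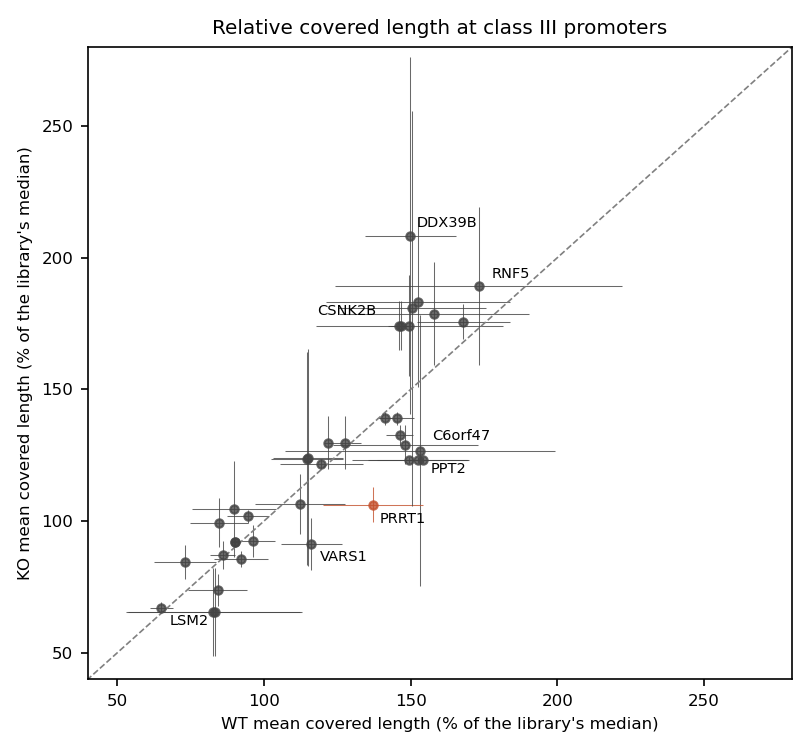
Mean covered length in KO (vertical axis) against WT (horizontal axis), each as a percentage of the library's median, for the 37 class III promoters called in all 6 libraries (grey) and PRRT1 (orange). Bars are the SD over 3 libraries and the dashed line marks equal values; PPT2 and PRRT1 lie below it, DDX39B above it with a wide KO bar, and the points as a whole straddle it.

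Within the 4 lists of like width, WT replicate 3 was longer than every KO library by at least 500 bp at 7 of the 45 members covered in those lists, NEU1, CFB, PRRT1, PPT2, PPT2-EGFL8, ENSG00000285085 and RNF5. The same lead was found at 5.53% of all promoters and at 8 of 18 on the class II side. PRRT1, PPT2, PPT2-EGFL8 and ENSG00000285085 start under 1 peak, so the 7 members do not stand for 7 peaks. WT replicate 3 was shorter than every KO library by at least 500 bp at no member and at 0.455% of all promoters. WT replicate 3 lay above the KO mean at 26 of the 37 members called in all libraries (70.3%), with a median excess of 185 bp, and at 87.1% of all such promoters, with a median excess of 166 bp.

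The complement genes were the least consistently marked group, with 2 of 4 called in some libraries and 2 in none. C2 encodes a serine protease of the classical pathway and CFB the factor B protease of the alternative pathway. At the C2 5′ end (31927717) no peak was called in any WT library or in KO replicate 1, and peaks of 552 and 277 bp were called in KO replicates 2 and 3, from 44 and 54 bp downstream of the 5′ end, with −log10 q of 4.92 and 2.11. The unnamed gene ENSG00000244255, whose annotation runs over both C2 and CFB, starts beside C2 and shares these values. At CFB (5′ end 31946095) a peak of 1171 bp lay over the 5′ end in WT replicate 3, with −log10 q of 3.75. A peak of 235 bp lay 605 to 371 bp upstream in KO replicate 2, with −log10 q of 2.17, and the other 4 libraries had none. These peaks were weak beside the median −log10 q of their lists, which was 27.9 in WT replicate 3 and 30.8 and 32.3 in KO replicates 2 and 3. A further annotated 5′ end of C2 lies inside the EHMT2 peak at chr6:31896129-31899170, which was called in all 6 libraries.

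The upstream bases of C2 (chr6:31927567-31927716, plus strand) and CFB (chr6:31945945-31946094, plus strand) are shown because IRF factors bind a short known motif. Capitals mark matches on either strand to the IRF pair, which is GAAA repeated after a gap of 2 bases. Of these stretches, that of CFB held 1 match and that of C2 held none.
C2: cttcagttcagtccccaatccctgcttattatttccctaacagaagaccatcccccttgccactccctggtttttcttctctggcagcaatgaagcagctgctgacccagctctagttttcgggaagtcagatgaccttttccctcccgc
CFB: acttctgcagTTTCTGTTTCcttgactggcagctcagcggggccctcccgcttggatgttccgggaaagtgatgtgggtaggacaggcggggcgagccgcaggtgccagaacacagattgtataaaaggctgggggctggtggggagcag
In the 300-base windows the IRF pair was found in CFB alone of the 68 members (1.47%) and in 3.29% of all promoters. A match of letters is no evidence of binding.

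C4A and C4B, which encode the nearly identical forms of complement C4, had no peak within 3 kb in any library. They belong to the RCCX module of STK19, C4, CYP21A2 and TNXB, parts of which are duplicated. The 150 bases upstream of C4A and C4B were identical at 150 of 150 positions. Of the 100-base words within 1 kb of the C4A and C4B 5′ ends, 100% occurred more than once on chromosome 6, and 37.7% did so for CYP21A2, the steroid hydroxylase of the adrenal gland. Reads mapping to several places were removed by the authors. The absence of peaks at C4A and C4B, and in the repeated part at CYP21A2, therefore cannot be told apart from the absence of uniquely mapped reads. At 62 of the 68 members no word within 1 kb was repeated. TNXB, a tenascin of connective tissue, had no repeated word within 1 kb and no peak within 3 kb of its 5′ end. Inside its gene body a 604-bp region at chr6:32046805-32047408 was called in KO replicates 1 and 3 and a 503-bp region at chr6:32081056-32081558 in KO replicate 1 only. STK19 shares its peak with the decapping enzyme gene DXO, and its covered length was 4823, 4653 and 2772 bp in WT and 2754, 2496 and 2295 bp in KO, or 141 ± 2.46% and 139 ± 2.48% of the library's median.

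In the TNF cluster 2 of 7 members were marked. TNF and LTA, which encode the cytokines TNF and lymphotoxin alpha, had no peak within 3 kb in any library, nor had LST1, NCR3 and AIF1, genes of lymphoid and myeloid cells. LTB, which encodes lymphotoxin beta, was called in all 6 libraries. Its covered length was 2870, 3086 and 1474 bp in WT and 1580, 1232 and 1209 bp in KO, so WT replicate 3 lay below KO replicate 1. The peak lay over the 5′ end in WT replicates 1 and 2 and began 359 bp downstream of it in WT replicate 3 and 235, 475 and 471 bp downstream in the KO libraries. NFKBIL1, an IκB-like gene, shares its peak with ATP6V1G2 and covered 4005, 3120 and 2462 bp in WT and 2323, 1721 and 1762 bp in KO, with every WT library longer. Relative to the library it was 112 ± 15.3% in WT and 107 ± 11.4% in KO. The upstream bases of TNF (chr6:31575415-31575564, plus strand) are shown with TATAAA in capitals, as an unmarked promoter with a TATA box.
TNF: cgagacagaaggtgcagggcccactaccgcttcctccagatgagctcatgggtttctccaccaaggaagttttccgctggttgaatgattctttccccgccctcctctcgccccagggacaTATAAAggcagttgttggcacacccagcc
TATAAA was found on either strand in 13 of the 68 member windows (19.1%) and in 9.71% of all promoters.

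All 3 heat shock genes were called in all 6 libraries. HSPA1A and HSPA1B encode the stress-inducible HSP70, and HSPA1L is a close relative best known from testis. HSPA1A covered 3187, 3318 and 1477 bp in WT and 1809, 1704 and 2114 bp in KO, with WT replicate 3 the lowest of the 6 libraries. HSPA1L shares its upstream peak and covered 2927, 3058 and 1477 bp in WT and 1809, 1704 and 1854 bp in KO. HSPA1B covered 2935, 2852 and 2060 bp in WT and 1726, 1539 and 1390 bp in KO, with every WT library longer, and relative to the library it was 92.3 ± 9.22% in WT and 85.7 ± 2.96% in KO. In WT replicate 3 and the 3 KO libraries the upstream peak of HSPA1B ended 327, 349, 499 and 608 bp short of the 5′ end.

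The capitals in the upstream bases of HSPA1A (chr6:31815393-31815542, plus strand) and HSPA1B (chr6:31827588-31827737, plus strand) mark CCAAT and TATAAA on either strand. They are shown because the pair is nearly identical, with 141 of 149 bases the same when shifted by 1 base.
HSPA1A: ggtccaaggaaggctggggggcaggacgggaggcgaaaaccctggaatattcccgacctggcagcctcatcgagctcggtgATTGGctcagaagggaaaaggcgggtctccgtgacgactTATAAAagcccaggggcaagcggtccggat
HSPA1B: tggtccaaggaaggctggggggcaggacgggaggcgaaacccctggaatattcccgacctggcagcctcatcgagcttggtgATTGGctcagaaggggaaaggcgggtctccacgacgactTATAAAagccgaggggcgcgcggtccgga
Downstream, a stretch of 1715 bp that begins 208 bp after the HSPA1A 5′ end and 207 bp after the HSPA1B 5′ end consisted of repeated 100-base words. Peaks covered 1, 12 and 0 bp of it in WT and 0 bp in each KO library at HSPA1A, and 78, 59 and 0 bp in WT and 0 bp in each KO library at HSPA1B. Little or none of the repeated stretch was thus covered in any library. In WT replicates 1 and 2 the peaks on either side ended and began near its limits, while in the other 4 lists the uncovered stretch was longer, with the upstream peak ending before the repeat at both genes. CCAAT was found in 24 members (35.3%) and 36.1% of all promoters, and GGGCGG, the GC box, in 41 members (60.3%) and 61.3%. A heat shock element, 3 alternating GAA and TTC blocks spaced by 2 bases, was found in 1 member, TSBP1 (1.47%), and in 0.364% of all promoters. TTAGGG, the telomere repeat that ZBTB48 is known to bind, was found in 12 members (17.6%) and 8.54% of all promoters, and PRRT1, PPT2 and NEU1 were not among the 12. The paper reports that ZBTB48 also binds a CIITA promoter site whose sequence lacks TTAGGG. Presence or absence of these letters thus does not tell whether ZBTB48 binds a promoter, which was not tested. All motifs were searched on both strands, and every fixed letter had to match. A heat shock element that differs by 1 letter was therefore not counted. The printed bases of HSPA1A and HSPA1B each hold such a near match. Their absence from the count thus does not show that these genes lack the element.

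The 7 genes of RNA processing and translation were all called in all 6 libraries. DDX39B, an RNA helicase of mRNA export, covered 4639, 4739 and 3348 bp in WT and 5602, 3050 and 2827 bp in KO. KO replicate 1 was the longest of the 6, at 287% of its library's median, while KO replicates 2 and 3 were at 171 and 168% and the highest WT library at 167%, so that the complete separation on the relative scale (150 ± 15.5% in WT, 208 ± 67.8% in KO) rested on KO replicate 1 for its size. VARS1, the valyl-tRNA synthetase, was shorter in every KO library, with 4058, 4058 and 2085 bp in WT and 1938, 1687 and 1348 bp in KO (116 ± 10.4% against 91.2 ± 10.0%). NELFE, a subunit of the negative elongation factor, and SKIC2, a helicase of RNA decay, lie back to back under 1 peak and each covered 3064, 2975 and 1779 bp in WT and 1770, 1666 and 1560 bp in KO. On the relative scale each was at 90.2 ± 1.13% in WT and 92.2 ± 1.42% in KO. LSM2, an Sm-like protein of spliceosomal and decay complexes, had the shortest relative covered length of the members called in all libraries in WT, 65.0 ± 3.79%, and 67.0 ± 2.08% in KO. DXO and PRRC2A complete the group. Every WT library exceeded every KO library in bp at 5 of the 7, a share to be read beside the 50.8% of all promoters.

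The 5 genes of chromatin and transcription were also called in all libraries, with every WT above every KO library in bp at 1 of them. EHMT2, the histone H3 lysine 9 methyltransferase G9a, covered 3008, 3012 and 2055 bp in WT and 1974, 1784 and 1762 bp in KO, or 94.6 ± 7.12% and 102 ± 2.42% of the library's median. ATF6B, a transcription factor of the unfolded protein response, covered 4534, 4742 and 3898 bp in WT and 3930, 2931 and 2883 bp in KO. The homeobox gene PBX2 covered 6001, 4253 and 2884 bp in WT and 5177, 2162 and 2633 bp in KO, so that KO replicate 1 exceeded WT replicates 2 and 3. Its relative length was 151 ± 25.2% in WT and 181 ± 74.98% in KO. MSH5, a meiotic MutS homologue, covered 3337, 3337 and 986 bp in WT and 1072, 1509 and 953 bp in KO, with WT replicate 3 below KO replicates 1 and 2. ZBTB12 was the fifth.

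Of the 4 genes of lipid metabolism 3 were called in all 6 libraries, and of the 8 of protein quality control and signalling 7 were. AGPAT1, an acyltransferase of phospholipid synthesis, and RNF5, a ubiquitin ligase of the endoplasmic reticulum, share a region of 5857 bp. AGPAT1 covered 4289, 4680 and 3754 bp in WT and 3772, 3742 and 2482 bp in KO, so WT replicate 3 lay below KO replicate 1. RNF5 had the longest mean covered length of all members, 4857, 4782 and 4596 bp in WT and 3894, 3803 and 2620 bp in KO. At RNF5 the downstream edge of the peak lay at 1856, 1781 and 1595 bp in WT and at 893, 802 and 852 bp in KO, and in KO replicate 3 the region was split into 2 peaks. CSNK2B, the regulatory subunit of the kinase CK2, covered 4946, 4701 and 2996 bp in WT and 3197, 3224 and 3006 bp in KO, so that WT replicate 3 was the shortest of the 6. Its relative length was 147 ± 3.45% in WT and 174 ± 9.24% in KO. CLIC1, a chloride intracellular channel protein, was longer in every WT library, with 4784, 4770 and 3028 bp against 2625, 2414 and 2163 bp (146 ± 4.65% against 133 ± 3.73%). APOM, an apolipoprotein, was called in none but had flanks of neighbouring peaks within 3 kb in every library, with 2484, 2634 and 1237 bp in WT and 1369, 780 and 664 bp in KO.

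The 6 LY6 and platelet receptor genes and the 5 genes of a mixed group (AGER, NOTCH4, EGFL8, SLC44A4 and TSBP1) were called in no library. In all, 19 members had no covered base within 3 kb in any library. Of the 5 that were covered but not called, APOM was covered in every library and LY6G5B, LY6G6F, LY6G6F-LY6G6D and AGER in WT replicates 1 and 2 alone. LY6G5B had 1050 and 805 bp there, and AGER, which encodes the receptor for advanced glycation end products, had 741 and 600 bp. These 4 are covered only in the 2 lists of wide peaks and not in WT replicate 3. C6orf47, a gene in no group, was also widest in WT replicates 1 and 2, with 6001, 5955 and 2002 bp in WT and 3635, 1675 and 1689 bp in KO, which gave it 1 of the 5 largest relative deficits in KO (153 ± 46.0% against 127 ± 51.5%) with overlapping libraries. GPANK1 beside it covered 6001, 5784 and 2996 bp in WT and 3286, 3224 and 3006 bp in KO.

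The WT-only call was at PRRT1, which starts 2202 bp from PPT2 on the opposite strand. PRRT1 (5′ end 32151939) encodes a transmembrane protein associated with AMPA receptors, and PPT2 (5′ end 32154141) a lysosomal thioesterase. A single peak spanned both 5′ ends in each WT library, at chr6:32150504-32155926, chr6:32150883-32156013 and chr6:32151811-32155250 in replicates 1 to 3. In KO the peak lay at chr6:32153015-32155402, chr6:32152967-32155184 and chr6:32153094-32155165, and so it stopped 1076, 1028 and 1155 bp before the PRRT1 5′ end. The peak over PPT2 was kept in all 6 libraries, and its PRRT1 side was missing in the 3 KO libraries. The peak of WT replicate 3 was the weakest of the 6, with fold enrichment 3.01 beside 3.46 to 3.70 in KO. Its −log10 q was 32.5, beside 36.3 to 68.3 in KO. In WT replicate 3 the peak passed the PRRT1 5′ end by 128 bp.

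The covered length at PRRT1 was 4436, 4057 and 3129 bp in WT and 1925, 1973 and 1846 bp in KO. At PPT2 it was 4786, 4873 and 3440 bp in WT and 2388, 2218 and 2072 bp in KO. WT and KO did not overlap at either gene, in bp or relative to the library, where PRRT1 was at 137 ± 17.2% in WT and 106 ± 6.67% in KO and PPT2 at 154 ± 15.7% and 123 ± 1.04% (SD, n = 3 each). Each has the exact permutation p of 0.1 that is the smallest possible. The loss of the call at PRRT1 depended on the window, since the KO peaks ended only 28 to 155 bp outside the 1 kb limit, and no member had a WT-only call when the 5′ end of any annotated transcript was used. PPT2-EGFL8 and ENSG00000285085 start under the same peak and repeat the PPT2 values, with relative differences of −29.4 and −26.3 points beside −31.0 points at PPT2.

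NEU1, which encodes a lysosomal sialidase (5′ end 31862821), had a further peak with a side missing in KO. The downstream edge at RNF5, given above, was likewise nearer the 5′ end in every KO library. It covered 5075, 4026 and 3430 bp in WT and 2385, 2284 and 2307 bp in KO, and WT replicate 3 exceeded every KO library by at least 500 bp. The downstream edge lay 2522, 2108 and 2036 bp from the 5′ end in WT and 952, 929 and 818 bp in KO. The upstream edge of WT replicate 3, 1393 bp from the 5′ end, lay between those of the KO libraries at 1354 to 1488 bp, so the difference within lists of like width was on the downstream side alone. NEU1 was called in all 6 libraries, and its relative length was 148 ± 24.6% in WT and 129 ± 7.48% in KO, with overlap.

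**Figure D4:**
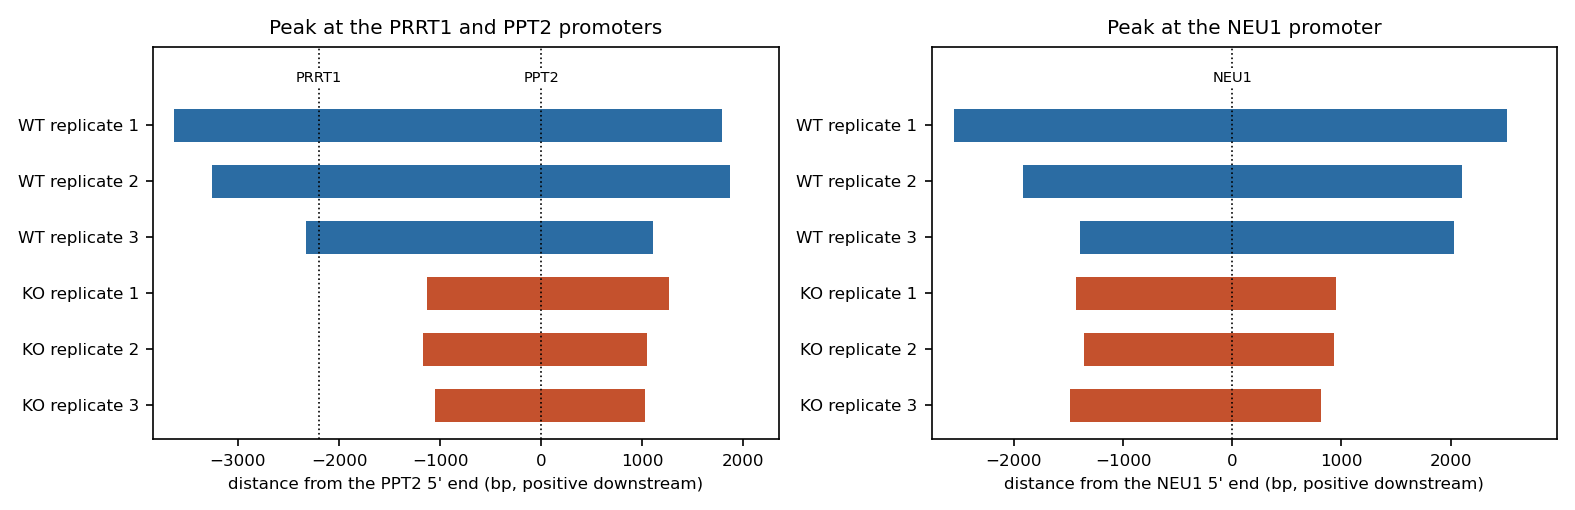
Peaks called in each library (bars, WT blue and KO orange) at the PRRT1 and PPT2 promoters (left) and at the NEU1 promoter (right), as distance in bp from the PPT2 or NEU1 5′ end, with dotted lines at the 5′ ends. The WT bars reach past the PRRT1 5′ end and the KO bars stop 1028 to 1155 bp before it; at NEU1 the KO bars end at 818 to 952 bp downstream and the WT bars at 2036 to 2522 bp.

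The other members with mixed calls lay at peak edges or were weakly marked. VWA7, which encodes a protein with a von Willebrand factor A domain, had peaks of 632 bp in WT replicate 2, 516 bp in WT replicate 3 and 890 bp in KO replicate 1, all over the 5′ end, and none in the other 3 libraries. GPSM3, a regulator of G protein signalling, was called in WT replicate 1 and KO replicate 1, where the PBX2 peak reached its 5′ end. In the other libraries the PBX2 peak stopped 1189 to 1935 bp short of it. Its covered length was 4602, 2759 and 2112 bp in WT and 3594, 1510 and 1922 bp in KO. ENSG00000289282, an unnamed gene, was called in WT replicates 1 and 2, where the PRRC2A peak ended 24 and 57 bp before its 5′ end, and in no other library. For these 2 genes the calls thus followed the reach of a neighbour's peak and were split within a genotype.

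The 5 members nearest the class II side say little about a loss. TSBP1 and NOTCH4 had no peak to lose, and the calls of GPSM3 and PBX2 came from 1 shared region. TSBP1 (28097 bp below the upper limit) and NOTCH4 had no peak within 3 kb in any library, AGER was covered in WT replicates 1 and 2 only, and GPSM3 and PBX2 had relative covered lengths that were 18.8 and 30.2 points higher in KO with SDs that exceeded these differences in KO. Over the interval in 3 parts of 300 kb, the WT and KO libraries called 19, 20 and 19 against 19, 18 and 18 of 35 members in the part next to class I. They called 11, 11 and 12 against 11, 14 and 13 of 18 in the middle part, and 10, 9 and 9 against 9, 8 and 8 of 15 in the part next to class II. PRRT1 accounts for 1 of the calls missing from each KO library in the last part. The median relative difference, KO minus WT, of the members called in all libraries was 1.70 points (18 members), 2.02 points (11) and 18.5 points (8) from class I to class II. Over the members called in all WT libraries, the choice made on the class II side, it was 1.70 points (18 members), 2.02 points (11) and 16.1 points (9), against −23.0 points on the class II side. Of those 9 members next to class II, 4 were lower in KO, namely PRRT1, PPT2, PPT2-EGFL8 and ENSG00000285085 with −31.0 to −26.3 points, all at the shared peak described above. The other 5, RNF5, ATF6B, FKBPL, AGPAT1 and PBX2, were higher, though each had a lower KO mean in bp. WT replicate 3 alone exceeded the KO mean at RNF5 (230 against 189%), ATF6B (195 against 179%), FKBPL (186 against 174%) and AGPAT1 (188 against 183%). It lay below at PBX2 (144 against 181%). At all but PBX2 the higher relative value in KO thus came from WT replicates 1 and 2, the lists of wide peaks. Across the 37 members the relative difference and the distance to the upper limit had a Spearman rho of 0.0262 and a Pearson r of 0.0574, given as a description since neighbouring promoters share peaks.

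Merging the 6 lists gave 34 regions in the interval, of which 29 were called in all 6 libraries. None was called in all libraries of 1 genotype and none of the other. The 5 regions not called in all 6 were those of VWA7, C2 and CFB and the pair inside TNXB. A member's 5′ end lay within 1 kb of 26 regions, and 12 of these served at least 2 members, 30 members in all. The C6orf47, GPANK1, CSNK2B and ENSG00000263020 promoters shared a region of 10265 bp, the widest. Members are for this reason not independent of each other. Of the 8 regions at no member, 6 were called in all 6 libraries. They included the region over SNHG32, a host gene of small nucleolar RNAs, with 6273, 5952 and 3492 bp in WT and 3638, 4361 and 3525 bp in KO, and separate regions downstream of HSPA1A, downstream of HSPA1B, at a further 5′ end of GPSM3 and at the 5′ end of TSBP1-AS1.

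Peaks over the class III promoters called in all libraries reached further upstream than those over promoters in general. The median upstream edge of peaks over a member's 5′ end was 1875, 1795 and 1190 bp away in WT replicates 1 to 3 and 1136, 926.5 and 786 bp in KO, against 1186, 1242 and 709 bp in WT and 711, 626 and 585 bp in KO for all promoters. At 1000 bp upstream, 59.5% of these members were covered in WT replicate 3 and 62.2, 51.4 and 43.2% in KO replicates 1 to 3, beside 28.3% and 28.4, 23.1 and 20.1% of all promoters. At 1000 bp downstream the members were covered less often, with 62.2% and 54.1, 46.0 and 46.0% against 71.8% and 68.4, 60.4 and 53.9%. At 3000 bp downstream they were covered more often in every library, with 40.5, 32.4 and 5.41% in WT and 13.5, 5.41 and 8.11% in KO against 18.5, 13.6 and 2.09% in WT and 2.38, 1.54 and 1.33% in KO. Shared regions between neighbouring promoters are part of these values. The 5′ end itself was covered in 89.2% of these members in WT replicate 3 and in 86.5, 81.1 and 83.8% in the KO libraries, beside 95.4 to 97.5% of all promoters in the same lists.

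**Figure D5:**
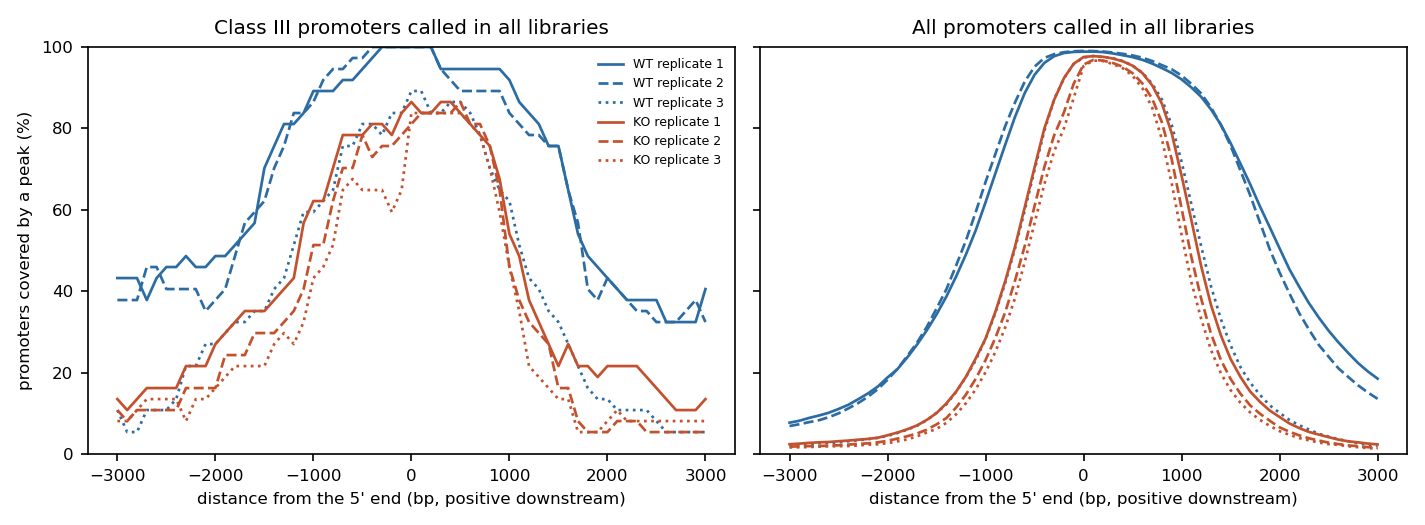
Percentage of promoters covered by a peak (vertical axis) against the distance from the 5′ end in bp (horizontal axis), for the 37 class III promoters (left) and the 13036 promoters (right) called in all 6 libraries, with 1 line per library (WT blue, KO orange). On both sides WT replicates 1 and 2 run above the other 4 libraries, and WT replicate 3 runs mostly among or above the KO libraries. The class III curves are higher from 500 bp upstream outward. At 200 bp upstream they are lower in the other 4 libraries, with 83.8% against 92.3% in WT replicate 3 and 59.5% against 80.0% in KO replicate 3.

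The rank of the class III peaks within their lists also depended on the kind of list. The median fold enrichment of the peaks at the 37 members stood at percentiles 76.8 and 67.6 of all peaks in WT replicates 1 and 2, beside 73.3 and 73.8 for all promoters. In WT replicate 3 it stood at percentile 14.2 and in the KO libraries at 22.6, 26.4 and 24.8, beside 51.7 for all promoters in WT replicate 3 and 52.7, 55.1 and 58.3 in KO. The low rank held in both genotypes within the 4 lists of like width. The part of the kind of list in it was not tested.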

How the data were processed

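Libraries of 3 WT and 3 ZBTB48 KO clones of U2OS cells were grouped by their genotype labels. According to the methods, reads were trimmed with trimmomatic and mapped to GRCh38 by bowtie2 2.3.5.1. The authors then discarded duplicates and reads without a unique position, and ran MACS2 2.1.1.2 in broad mode on each library. The score deposited by the authors is a display value and was left unused. The deposited fold ratio and the deposited −log10 p and q served to characterise, order or threshold the peaks of a list. No counts were given, so depth was unknown and no counting interval was computed.

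Peaks on the 24 main chromosomes were kept, and 0 of them lay beyond a chromosome's end in the GRCh38 reference. 5′ ends came from GENCODE release 44. Covered lengths were compared by exact permutation over the 6 libraries with Benjamini-Hochberg adjustment over all covered promoters. Nothing in the labels pairs the clones. The members, gene groups and comparisons were chosen with earlier results of these data known. Named were all members with mixed calls, those of the complement, TNF, heat shock and RCCX groups, the 5 nearest the class II side, the 5 with the largest relative difference in each direction and the 5 longest, and other members were named after their values were seen. The measuring steps were tested on simulated lists. Python 3.11.15, numpy 2.4.6, scipy 1.17.1 and matplotlib 3.10.9 were used. Sequences are from the GRCh38 reference, and 1 motif is not reported here. Alternatives were peak thresholds, windows, transcript ends, pairing by number, leaving out libraries and leaving out duplicated genes. The relative scale for complete separation was added after the data were seen.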

Additional observations from a re-analysis of the deposited data

How the results depend on the processing

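Of 92 values recomputed under alternatives for the class III promoters as a whole, 73 stayed within the spread of the libraries or within 1.5 times the count. Some of these could not move, since pairing by number changes only complete separation and the 500 bp overlap changes only the calls. The count of 73 therefore overstates how stable the results are. The WT minus KO difference in promoters called, 0.667, became 1.67 with −log10 q of at least 3, 2.33 with 500 bp of the window covered, 1.67 with the windows exchanged and −0.333 with the 5′ end of any transcript, and it was 0.5 to 1 with a library left out.
A fold enrichment of at least 4 moved it to 19.0, covered length from 777 to 1432 bp, relative length from −0.258 to 45.2 points, complete separation from 19 to 4 members and WT-only calls from 1 to 0. With that threshold the libraries called 40, 39 and 6 members in WT and 7, 10 and 11 in KO, which keeps 15.0 to 28.2% of the calls in the 4 narrow lists, where 58.0 to 78.2% of the calls over all promoters were kept.
Covered length differed by 202 bp with the windows exchanged and by 169 bp for WT replicate 3 against KO, and without single libraries by 601 to 1081 bp. Relative length ranged from −2.07 to 2.45 points without single libraries.
Complete separation rose to 34 members with the replicate block (each WT library against the KO library of its number), ranged from 19 to 40 without single libraries, 40 without WT replicate 3 and 31 without KO replicate 1, and fell to 6 relative to the library. Same-numbered libraries did not deviate together, with correlations of −0.00952, 0.0171 and 0.0932.
PRRT1 as the WT-only member was lost (0) with the windows exchanged and with any transcript end, and without single libraries the count was 1 to 2, with ENSG00000289282 joining without WT replicate 3. KO-only calls were 0 to 2, with C2 and ENSG00000244255 without KO replicate 1. Of 238 values for 17 named members, 203 kept their call and stayed within the spread where there was none, and none reversed a complete separation. At 7 values a complete separation was lost. With a fold enrichment of at least 4 this was so at PRRT1, PPT2, NEU1, RNF5, CLIC1 and HSPA1B. PPT2 also lost it with the windows exchanged, where the difference was 0 bp. The 203 include the values under the 500 bp overlap, which leaves covered length unchanged by its definition. The causes were not tested. Depth was unknown and limits every missing peak.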
